A study of Mus musculus with 2 samples.

Results

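Genes of the MHC class I antigen presentation pathway were followed across 8 mouse sarcomas profiled by single-nucleus RNA-seq. The 10 genes were chosen by symbol: B2m, H2-K1, H2-D1, Tap1, Tap2, Tapbp, Psmb8, Psmb9, Psmb10 and Nlrc5. All 10 were present among the 19059 features measured in each tumor. The tumors came from the dFLEx CDS model, in which the CIC::DUX4 fusion sits in Rosa26 behind the CAG promoter. The fusion is switched on by Cre and FLPE plasmids, themselves driven by the CAG promoter, that are electroporated into the hind limb muscle of immunocompetent mice. The 4 untreated tumors carried the genotype label dFLEx CDS +/-. The other 4, also dFLEx CDS tumors but with no genotype label, had been treated with Minnelide (0.42 mg/kg) over 21 days. Ages were not in the labels. Minnelide releases triptolide, which binds the XPB subunit of the general transcription factor TFIIH and blocks transcription by RNA polymerase II. The file names of Minnelide tumors 1 and 2 held the word responder and those of tumors 3 and 4 the word nonresponder. The words are used as descriptions and form no group.

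Nearly every nucleated cell shows peptides from its own proteins on MHC class I, where CD8 T cells can read them. H2-K1 and H2-D1 encode the heavy chains that hold the peptide, and B2m encodes beta-2 microglobulin, the light chain without which the heavy chains do not reach the surface. Psmb8, Psmb9 and Psmb10 encode the catalytic subunits that turn a proteasome into an immunoproteasome. Tap1 and Tap2 form the pump that carries peptides into the endoplasmic reticulum, and Tapbp encodes tapasin, which joins the pump to the empty heavy chain. Nlrc5 is a transcriptional coactivator of class I genes. Interferon gamma raises the whole pathway, and tumors often lower it.

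In GRCm39, 7 of the genes lay in the MHC on chromosome 17, B2m lay on chromosome 2, and Psmb10 and Nlrc5 lay on chromosome 8. The gene bodies ran from chr17:34214987-34219321 on the minus strand for H2-K1, chr17:35481691-35486475 on the plus strand for H2-D1 and chr2:121977957-121983594 on the plus strand for B2m. Tap1 and Psmb9 overlapped on opposite strands, B2m overlapped Patl2, and Tapbp overlapped Zbtb22 on the same strand. Tap2 overlapped the lncRNA genes Gm20496 and Gm15821 on the opposite strand. Strand use in counting was not given in the sources used here, so reads in overlaps on opposite strands could not be assigned with certainty. Strand cannot separate Tapbp from Zbtb22. H2-K1 and H2-D1 also shared sequence with other H2 genes: 8.79% of the 50-base windows of the H2-K1 transcript and 12.2% of those of H2-D1 occurred in another H2 gene.

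RefSeq promoter windows, which span 250 bases before to 50 bases after the start site, were found for 8 of the 10 genes in a GRCm38.p6 table and placed on GRCm39 by exact match. Tap2 and Nlrc5 had no entry. The windows of both chains of the class I molecule are shown because each held a match to a form of the interferon-stimulated response element. This element is the short sequence read by IRF factors. Capitals mark the match to GAAANNGAAA or GAANNGAAA on either strand.
B2m: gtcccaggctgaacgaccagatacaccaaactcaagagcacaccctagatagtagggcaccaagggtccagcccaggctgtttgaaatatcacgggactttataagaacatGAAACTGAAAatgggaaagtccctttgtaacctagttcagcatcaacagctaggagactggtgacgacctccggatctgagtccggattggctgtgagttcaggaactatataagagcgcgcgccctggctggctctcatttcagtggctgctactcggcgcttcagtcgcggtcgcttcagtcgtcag
H2-K1: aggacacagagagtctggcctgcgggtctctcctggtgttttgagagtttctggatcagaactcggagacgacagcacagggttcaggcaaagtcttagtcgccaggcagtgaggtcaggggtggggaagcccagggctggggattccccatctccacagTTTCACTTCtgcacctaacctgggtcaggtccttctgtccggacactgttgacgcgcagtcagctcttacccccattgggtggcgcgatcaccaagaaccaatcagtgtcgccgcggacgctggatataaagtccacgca
H2-D1: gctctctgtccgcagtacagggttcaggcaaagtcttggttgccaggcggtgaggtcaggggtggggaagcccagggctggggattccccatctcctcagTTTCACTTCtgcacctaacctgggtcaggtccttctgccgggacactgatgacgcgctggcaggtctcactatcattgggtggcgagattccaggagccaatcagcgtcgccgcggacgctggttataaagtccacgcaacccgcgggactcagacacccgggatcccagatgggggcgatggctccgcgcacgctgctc
The windows lay at chr2:121977918-121978217 on the plus strand for B2m, chr17:34219272-34219571 on the minus strand for H2-K1 and chr17:35481820-35482119 on the plus strand for H2-D1. The match began 139 bases before the start site in B2m, 90 bases before it in H2-K1 and 150 bases before it in H2-D1. H2-K1 and H2-D1 held the same 9 letters. Either form was present in 10.4% of the 32851 RefSeq windows, and 3 of the 8 windows of the pathway held one. The long form GAAANNGAAA was in 1 of the 8, B2m, against 3.44% of all windows. The short form, which gave the matches in H2-K1 and H2-D1, was chosen after these windows had been read. The count of 3 is therefore a description only. The GAS motif TTCNNNGAA, also searched on both strands, was found in the Psmb8 window and in 8.3% of all windows. CCAAT was found in 6 of the 8 windows against 37.4% of all windows, and in no printed window did it overlap the capitals. The windows of Tap1 and Psmb9 overlapped each other, because the genes start close together on opposite strands. The CCAAT found in these windows is the same site, counted once for each gene. A match describes the letters and does not show that a factor bound there.

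The matrices held 72338 nuclei, of which 59907 were retained, 30789 untreated and 29118 Minnelide. Deposited unique molecular identifiers (UMIs, each standing for 1 captured RNA molecule) ranged from 18487409 to 73211599 per tumor, and the median per nucleus ranged from 883 in untreated tumor 4 to 4031 in Minnelide tumor 1. Each untreated tumor shared barcodes, 49 to 132 of them, with the Minnelide tumor of the same number and none with any other tumor. Whether the groups were separate runs is not given in the sources used here, so run and treatment cannot be told apart. Clusters were named by marker genes as tumor-like (36363 nuclei), fibroblast-like (6919), myocyte-like (6685), endothelial-like (3212), macrophage-like (1974), smooth muscle-like (1015) and osteoclast-like (776). The 8 markers of the fusion, such as Etv4 and Shc3, summed to between 13319.2 and 20556.1 CPM (normalized counts, a gene's UMIs scaled to all UMIs of the class in that tumor) in the tumor-like nuclei of each tumor. All but 1 of the tumor-like clusters drew at least 93% of their nuclei from 1 tumor.

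Untreated tumor 1 stood apart from the other 7 tumors. In its tumor-like nuclei, the 11 endothelial markers summed to 3772.7 CPM, against 453.8 to 773.1 in the other tumors. The 10 macrophage markers summed to 757 CPM there against 94.7 to 298.2, the 13 T/NK markers to 200.7 against 22.7 to 90.9, and the 6 B cell markers to 60.9 against 0.818 to 2.69. None of these markers was at 0 in that tumor. Other lists went differently there: myocyte markers were highest (6586.3 against 430.6 to 5588.3 CPM), while dendritic (51.3 against 84.3 to 149.2) and fibroblast markers (1350 against 1621.5 to 5539) were lowest. The rise was not limited to tumor-like nuclei. Macrophage markers were also highest in this tumor in its fibroblast-like (394.1 against 92.9 to 250.2 CPM), endothelial-like, myocyte-like and smooth muscle-like nuclei. Many log2 fold changes are also given without this tumor. The group means of detection shares and the correlations across profiles, given further on, include it. In tumor-like nuclei with no UMI of a macrophage or T/NK marker, the log2 fold changes (Minnelide over untreated) were -1.83 for H2-K1, -1.31 for Tap2, -1.56 for H2-D1, -1.66 for Nlrc5 and -0.83 for B2m, each farther from 0 than in all tumor-like nuclei, while Psmb9 (-0.52) and Psmb10 (-0.11) were nearer 0. A deeper nucleus is more likely to hold such a UMI, and levels differed between clusters of different depth, as given further on. These fold changes therefore cannot show the part of immune RNA. The part of the macrophage, T/NK, endothelial and B cell markers was not tested. Untreated tumor 4 was the shallowest. Of its 8281 tumor-like nuclei, 5960 fell in a cluster with a median of 750 UMIs whose endothelial, fibroblast and myocyte markers were raised as well.

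Summed over all retained nuclei, the 10 genes reached 781.3 CPM in untreated tumor 1, 311.4 in tumor 2, 179.2 in tumor 3 and 154.7 in tumor 4. In the Minnelide tumors the sum was 160.2 CPM in tumor 1, 115.8 in tumor 2, 171.3 in tumor 3 and 170.4 in tumor 4. Untreated tumors 1 and 2 were therefore the highest of the 8, while untreated tumors 3 and 4 lay beside the Minnelide tumors. The sum weights each gene by its UMIs, so the heavy and light chain genes carry most of it. In sums over a whole tumor, fewer cells of a type and less RNA per cell cannot be told apart. Tumor-like nuclei held 54.8% of the pathway's UMIs in the untreated tumors and 63% in the Minnelide tumors. These shares pool UMIs over the tumors of a group and follow the share of nuclei in the class as well as the level. Tumor-like nuclei made up 37.7% to 79.9% of the nuclei of the untreated tumors and 23.4% to 81.6% of those of the Minnelide tumors.

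In tumor-like nuclei the sum was 651.8, 257.6, 145.4 and 164.5 CPM in untreated tumors 1 to 4 and 140.3, 126.8, 162.9 and 155.1 CPM in Minnelide tumors 1 to 4. Untreated tumors 1 and 2 were again the highest, and the other 6 tumors lay between 126.8 and 164.5 CPM. H2-K1 stood at 223.1, 60, 33.2 and 35.9 CPM in untreated tumors 1 to 4 and at 20.4, 26.4, 21.2 and 24.3 CPM in Minnelide tumors 1 to 4. All Minnelide tumors were below all untreated tumors, and untreated tumor 1 was 3.72 times the next highest tumor. The H2-K1 log2 fold change, Minnelide minus untreated, was -1.72 (SE 0.56) with an adjusted p of 0.55 in edgeR's quasi-likelihood test, and -0.83 without untreated tumor 1.
H2-D1, the other heavy chain, stood at 158.6, 50.1, 19.3 and 19.4 CPM in the untreated tumors and at 21.5, 17.9, 19.5 and 27.8 CPM in the Minnelide tumors. Its groups overlapped, and untreated tumors 3 and 4 were within the Minnelide range. The H2-D1 log2 fold change was -1.30 (SE 0.62), with an edgeR adjusted p of 0.559, and -0.37 without untreated tumor 1.
B2m, the light chain, stood at 102, 59.7, 23.9 and 32.4 CPM in the untreated tumors and at 38.7, 19.7, 39.9 and 31.45 CPM in the Minnelide tumors. Its groups overlapped, and its log2 fold change of -0.57 (SE 0.41) had an edgeR adjusted p of 0.652 and came to -0.16 without untreated tumor 1.

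**Figure D1:**
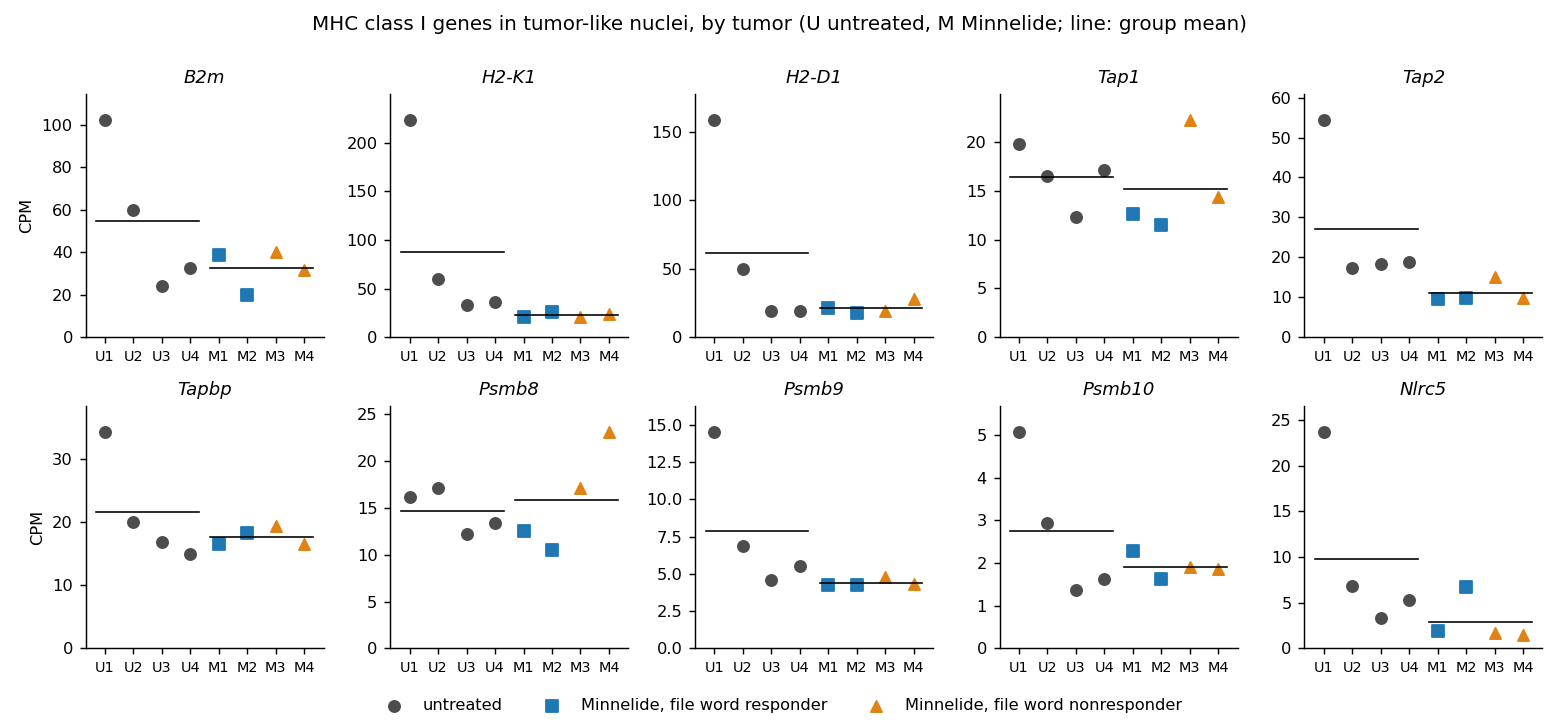
Level of each of the 10 genes in tumor-like nuclei, in CPM on axes that start at 0, for untreated tumors U1 to U4 and Minnelide tumors M1 to M4, with 1 point per tumor and a line at each group mean. U1 is the highest tumor for 8 of the 10 genes, at 223.1 CPM for H2-K1 and 54.3 CPM for Tap2, while Tap1 and Psmb8 are highest in a Minnelide tumor.

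The subunits of the peptide pump had unlike patterns. Tap2 stood at 54.3, 17.4, 18.2 and 18.7 CPM in the untreated tumors and at 9.6, 9.94, 15.2 and 9.8 CPM in the Minnelide tumors. Its groups did not overlap, and untreated tumors 2, 3 and 4 lay between 17.4 and 18.7 CPM. The Tap2 log2 fold change was -1.11 (SE 0.36), with an edgeR adjusted p of 0.55, and -0.62 without untreated tumor 1. Tap1 stood at 19.9, 16.5, 12.4 and 17.2 CPM in the untreated tumors and at 12.6, 11.6, 22.3 and 14.4 CPM in the Minnelide tumors. Its highest level was in Minnelide tumor 3, and its log2 fold change was 0.03 (SE 0.24), or 0.07 without untreated tumor 1. Tapbp, the bridge between pump and heavy chain, ranged from 15 to 34.4 CPM among untreated and from 16.6 to 19.4 CPM among Minnelide tumors. Its log2 fold change was -0.13 (SE 0.23), or 0.11 without untreated tumor 1.

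Nlrc5, the coactivator, stood at 23.7, 6.8, 3.31 and 5.32 CPM in tumor-like nuclei of the untreated tumors and at 1.9, 6.69, 1.67 and 1.49 CPM in the Minnelide tumors. Minnelide tumor 2 was within the untreated range and the other 3 Minnelide tumors were below it. The Nlrc5 log2 fold change was -1.62 (SE 0.71), with an edgeR adjusted p of 0.556, and -0.83 without untreated tumor 1. These levels rested on 16 to 827 UMIs per tumor.
Of the immunoproteasome subunits, Psmb9 ranged from 4.58 to 14.6 CPM among untreated and from 4.25 to 4.78 CPM among Minnelide tumors, a log2 fold change of -0.67 (SE 0.33), or -0.28 without untreated tumor 1. Psmb10 ranged from 1.36 to 5.08 CPM and from 1.62 to 2.29 CPM, on 8 to 177 UMIs per tumor, a log2 fold change of -0.35 (SE 0.40), or 0.05 without untreated tumor 1. Psmb8 ranged from 12.2 to 17.1 CPM and from 10.6 to 23.1 CPM, with its highest level in Minnelide tumor 4 and a log2 fold change of 0.25 (SE 0.27), or 0.24 without untreated tumor 1.

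In the fit across genes, edgeR's quasi-likelihood test called 0 of the 10 genes in tumor-like nuclei and 0 of 12799 genes tested (0%). At an unadjusted p under 0.05 the counts were 2 of 10, H2-K1 and Tap2, against 8.87% of all genes. DESeq2 called 99 genes in tumor-like nuclei and 0 of the 10. H2-K1 and Tap2 were the genes of the 10 with all Minnelide tumors below all untreated tumors, which held for 5.64% of the genes tested. Complete separation of 4 from 4 tumors fixes the two-sided exact permutation p at 0.0286, the smallest over 70 splits, so for these genes it adds nothing to the count. For the other 8 genes the exact permutation p, not adjusted, ran from 0.0571 for Psmb9 to 0.743 for Psmb8. The median log2 fold change of the 10 was -0.62, with 8 of 10 below 0, beside a median of -0.00 over all genes. Without untreated tumor 1 the median of the 10 was -0.22, with 6 of 10 below 0, beside 0.02 over all genes.
The separation of H2-K1 and Tap2 in tumor-like nuclei depended on how nuclei of untreated tumor 4 were assigned. The deeper of its 2 tumor-like clusters, with 2242 nuclei, had 22.3 CPM of H2-K1 and 13.8 CPM of Tap2, both within the Minnelide range. The shallow cluster had 52.1 and 24.8 CPM. Under stricter naming, which left the shallow cluster unnamed and took untreated tumor 1 from 3389 to 103 tumor-like nuclei, 0 of the 10 genes separated the groups. The same count of 0 was found without doublet removal.

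Summed over all retained nuclei, where class names play no part, H2-K1 and Tap2 separated the groups too. H2-K1 ranged from 34.9 to 258.9 CPM among untreated and from 24.8 to 31.3 CPM among Minnelide tumors, a log2 fold change of -1.66 (SE 0.57), or -0.76 without untreated tumor 1. Tap2 ranged from 18.4 to 54.2 CPM and from 9.96 to 16 CPM, a log2 fold change of -1.11 (SE 0.31), or -0.76 without that tumor. All Minnelide tumors below all untreated tumors held for 6.93% of the 13811 genes tested there. edgeR called 0 of the 10 and 0 of all genes (0%), with 3 of the 10 (H2-K1, Tap2 and Nlrc5) against 9.96% of all genes at an unadjusted p under 0.05. DESeq2 called 181 genes and 0 of the 10, and Ciita and H2-M2 among the listed genes described further on. The share of macrophage-like nuclei was 6.39%, 5.43%, 4.48% and 0.791% of untreated tumors 1 to 4 and 1.86% to 3.44% of the Minnelide tumors, and its part in the whole-tumor values was not tested.

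The normal cell classes were compared in the same way, and edgeR again called 0 genes in each (0% of 11495 in fibroblast-like, 0% of 9784 in endothelial-like and 0% of 7996 in macrophage-like nuclei). In fibroblast-like nuclei 9 of the 10 genes passed the filter on low counts, in endothelial-like 8 and in macrophage-like 7. Psmb10 was filtered out in each of these classes, Psmb9 in endothelial- and macrophage-like nuclei and Psmb8 in macrophage-like nuclei. No tested gene of the 10 had all Minnelide tumors below all untreated tumors in these classes, against 3.59%, 2.9% and 1.01% of the genes tested. Unadjusted p under 0.05 counted 1 gene in fibroblast-like nuclei (Nlrc5), 2 in endothelial-like nuclei (B2m and H2-K1) and 1 in macrophage-like nuclei (Tap2), against 8.14%, 8.17% and 3.55% of all genes tested in these classes. DESeq2 called 51, 13 and 0 genes in the same classes, and 0 of the 10 in each. The 8 markers of the fusion were also present in these classes. They summed to 3675.6 to 10056.5 CPM in untreated and 7464.8 to 15372.6 CPM in Minnelide macrophage-like nuclei. In endothelial-like nuclei the ranges were 2798.8 to 7903.6 and 6280.3 to 14251.8 CPM, in fibroblast-like 2660.5 to 5707.3 and 5619.6 to 10832.9 CPM. The part of tumor RNA in these comparisons, and in the class differences and ratios further on, was not tested.
In endothelial-like nuclei H2-K1 stood at 444.8, 176, 103.4 and 51.4 CPM in the untreated tumors and at 48.9, 77.6, 45.2 and 50.4 CPM in the Minnelide tumors, a log2 fold change of -1.73 (SE 0.53), or -1.02 without untreated tumor 1. Untreated tumor 4 lay inside the Minnelide range. In macrophage-like nuclei H2-K1 stood at 511.8, 177.1, 105.4 and 151.6 CPM against 95.8, 127.1, 121.8 and 162.9 CPM, and its log2 fold change of -0.94 (SE 0.44) came to -0.22 without untreated tumor 1. Nlrc5 in macrophage-like nuclei averaged 71.4 CPM over untreated and 78.3 CPM over Minnelide tumors, and its log2 fold change was -0.04 (SE 0.38).

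**Figure D2:**
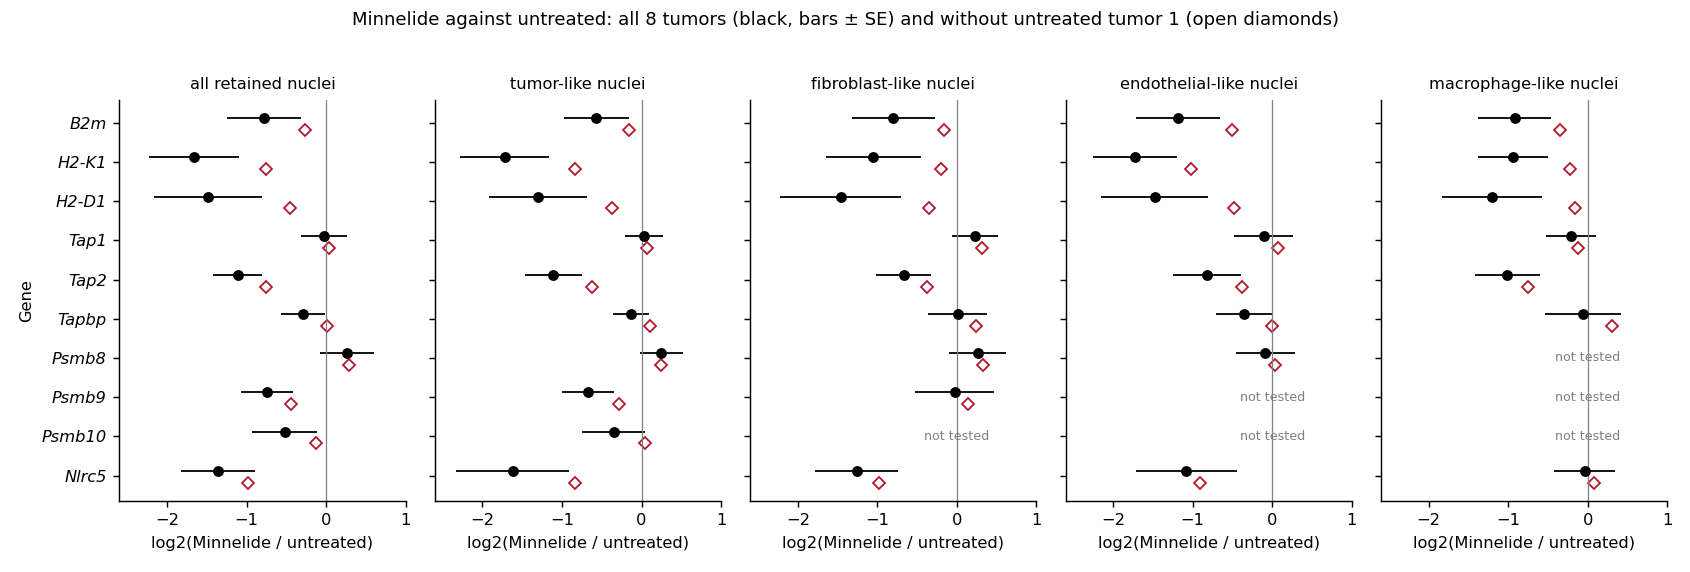
Log2 fold change of each gene, Minnelide over untreated, in all retained nuclei and in 4 classes. Black points with bars are the edgeR estimate with its SE over 8 tumors, and open diamonds are the estimate without untreated tumor 1. In tumor-like nuclei H2-K1 moves from -1.72 to -0.83 and H2-D1 from -1.30 to -0.37.

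The Minnelide effect in tumor-like nuclei was set against its mean in fibroblast-, endothelial- and macrophage-like nuclei of the same tumors, with the tumor as a block. edgeR called 0 of 12289 genes (0%) and 0 of the 10. Nlrc5 had the most negative difference of the 10, -0.86 (SE 0.44), with an edgeR adjusted p of 0.841, and -0.36 without untreated tumor 1. H2-K1 had a difference of -0.49 (SE 0.22), with an edgeR adjusted p of 0.779, and -0.40 without untreated tumor 1. At an unadjusted p under 0.05 the count was 1 of 10 (H2-K1), against 6.12% of all genes. The other 8 differences ran from -0.33 to 0.34, and an adjusted p above the threshold does not show that the classes responded alike.

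Within each tumor the pathway varied between classes. Since classes came from clusters of the same nuclei, these levels are a description with no test. The sum of the 10 genes was highest in macrophage-like nuclei in 8 of 8 tumors, at 378.9 to 1652.6 CPM for untreated and 362.4 to 742.3 CPM for Minnelide tumors. The median ratio to tumor-like nuclei of the same tumor was 2.86 (range 2.3 to 4.79). Endothelial-like nuclei followed at 2.02 (0.953 to 2.66) and osteoclast-like nuclei at 1.81 (1.41 to 2.38). Smooth muscle-like and myocyte-like nuclei were both at 1.29 and fibroblast-like nuclei at 1.11, ranges that included 1. Neighboring classes in this order overlapped across tumors. Untreated tumor 1 had the highest sum in each of the 7 classes, from 2.2 times the next tumor in osteoclast-like to 2.53 times in tumor-like nuclei.

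**Figure D3:**
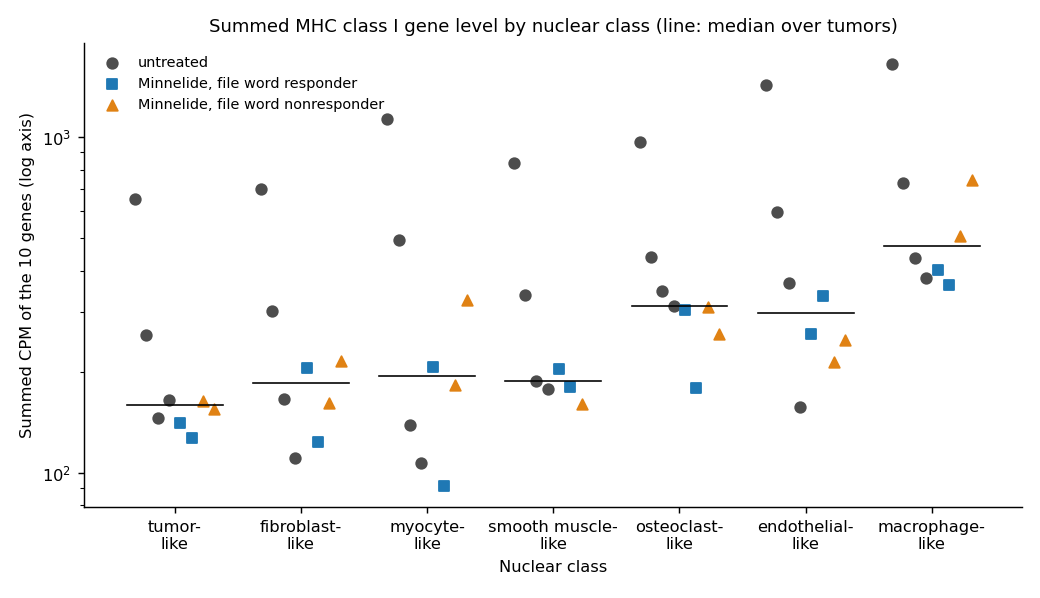
Summed CPM of the 10 genes on a log axis, by nuclear class, with 1 point per tumor and a line at the median over tumors. Points in a class run from untreated tumor 1 at the left to Minnelide tumor 4 at the right, and smooth muscle-like nuclei have 7 tumors with enough nuclei. Macrophage-like nuclei lie highest, from 362.4 to 1652.6 CPM, and untreated tumor 1 is the top point of each class.

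The genes did not share 1 order of classes. H2-K1 was highest in macrophage-like nuclei in 8 of 8 tumors, B2m in 7 of 8 and H2-D1 in 5 of 8, with median ratios to tumor-like nuclei of 4.46, 2.76 and 3.38. Nlrc5 showed the widest gap. It stood at 103, 82.6, 69.8 and 30.3 CPM in macrophage-like nuclei of the untreated tumors and at 45.9, 59.5, 69 and 138.8 CPM in those of the Minnelide tumors, on 4 to 166 UMIs per tumor. Each value was above the tumor-like level of the same tumor, and the median ratio was 16.6. In endothelial-like nuclei the Nlrc5 ratio was 3.26 and in smooth muscle-like nuclei 3.04.
Tap2 had another pattern, being highest in osteoclast-like nuclei in 8 of 8 tumors. These nuclei express Acp5 and Ctsk and arise from the same lineage as macrophages. Tap2 stood there at 154.1, 104.1, 158.4 and 114.4 CPM in the untreated tumors and at 22.5, 66.1, 59.4 and 91.6 CPM in the Minnelide tumors, a median of 6.05 times the tumor-like level against 1.58 times for macrophage-like nuclei. The Minnelide tumors were all below the untreated tumors, on 8 to 149 UMIs per tumor from 39 to 241 nuclei. No fit was made for this class and the share of all genes with groups apart in it was not counted, so this is a description only. Its 7 osteoclast markers summed to 7739.1 to 13567 CPM in untreated and 4586 to 8438.5 CPM in Minnelide tumors, and the 8 tumor markers to 1766.5 to 5563.7 and 4348.1 to 11090 CPM. None of these markers was at 0 in any tumor, and their part in the Tap2 levels was not tested. In smooth muscle-like nuclei, also without a fit, Tap2 ran from 21 to 45.1 CPM among untreated tumors. It ran from 16.9 to 19.2 CPM there in the 3 Minnelide tumors with enough nuclei. Tap1, the partner of Tap2 in the pump, was 1.39 times the tumor-like level in osteoclast-like nuclei.
The median ratio of Psmb8 to tumor-like nuclei was below 1 in each of the 6 other classes, from 0.575 in fibroblast-like to 0.85 in macrophage-like nuclei. Tap1, Psmb9 and Psmb10 were below 1 in some classes too, such as smooth muscle-like nuclei (0.705, 0.564 and 0.442). Psmb9 was 3.11 times the tumor-like level in macrophage-like nuclei and 0.697 times in fibroblast-like nuclei.

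**Figure D4:**
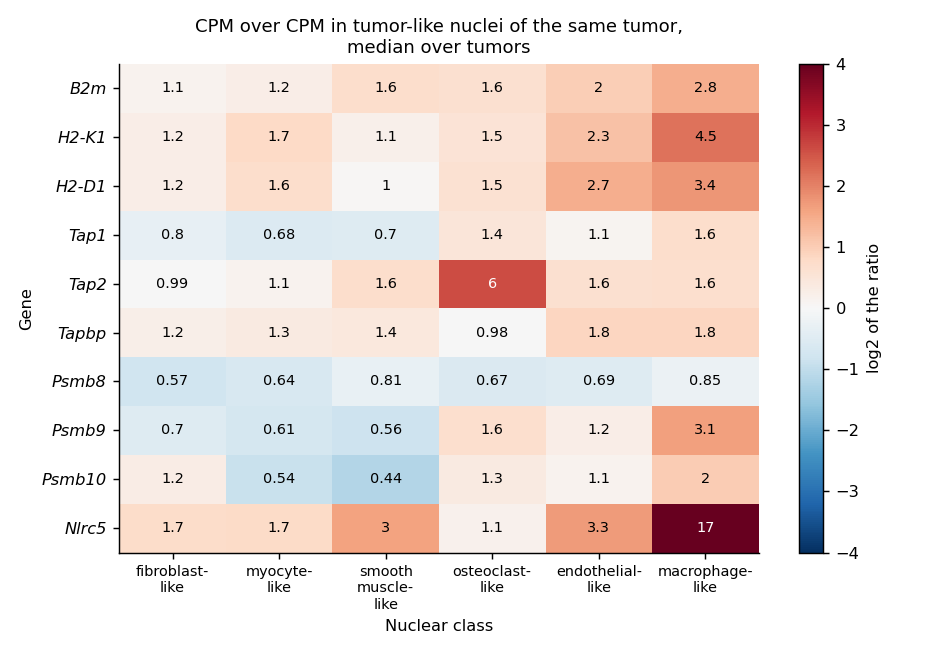
CPM of each gene in 6 classes over its CPM in tumor-like nuclei of the same tumor, as the median over tumors, with color giving the log2 of the printed ratio. Nlrc5 in macrophage-like nuclei (16.6) and Tap2 in osteoclast-like nuclei (6.05) stand out, while the Psmb8 row is below 1 throughout.

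The share of nuclei with a UMI was compared at 1 depth, by thinning each nucleus to 1000 UMIs and leaving out shallower nuclei. Of tumor-like nuclei, 53.7%, 26.5%, 15.3% and 13.5% held a UMI of any of the 10 genes in untreated tumors 1 to 4, and 18.4%, 13.1%, 17.7% and 15.5% in Minnelide tumors 1 to 4. The exact binomial 95% interval was 52% to 55.4% in untreated tumor 1 and 12.2% to 14.9% in untreated tumor 4, where 5709 nuclei were left out as too shallow. Intervals cover counting error only. Untreated tumors averaged 27.2% ± 18.5 (SD, n = 4), while the average of Minnelide tumors was 16.2% ± 2.39 (SD, n = 4). Without thinning the shares ran from 18.3% in untreated tumor 4, the shallowest, to 94.6% in untreated tumor 1. Macrophage-like nuclei held a UMI more often than tumor-like nuclei in each tumor, from 26.6% in untreated tumor 4 to 76.5% in untreated tumor 1. Class I genes are made by nearly all nucleated cells, so no class here gave a background share for free RNA.

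**Figure D5:**
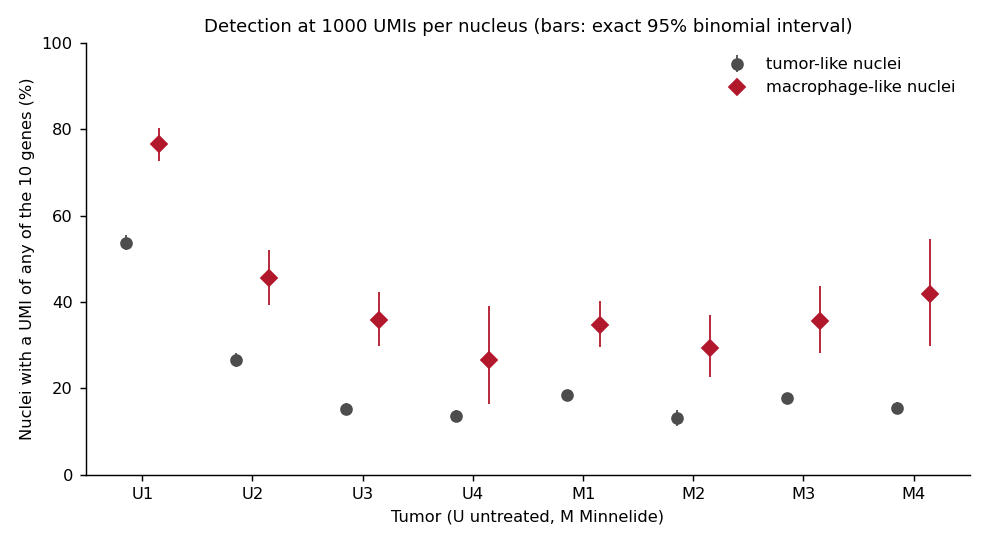
Percent of nuclei with at least 1 UMI of any of the 10 genes after thinning to 1000 UMIs per nucleus, by tumor, with exact 95% binomial intervals. Tumor-like nuclei reach 53.7% in untreated tumor 1 and lie between 13.1% and 26.5% in the other 7 tumors, and macrophage-like nuclei are higher in each tumor.

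Within a tumor, levels also differed between tumor-like clusters of different depth. In Minnelide tumor 1, the cluster with a median of 14360 UMIs had 93.9 CPM of the 10 genes together and the cluster with a median of 3573 UMIs had 196.4 CPM. In Minnelide tumor 3 the corresponding clusters had 118.8 CPM at a median of 9628 UMIs and 174.7 CPM at 3097 UMIs. In untreated tumor 1 they had 621 CPM at a median of 9736 UMIs and 864.2 CPM at 2672 UMIs. In untreated tumor 4 they had 122.2 CPM at a median of 1808 UMIs and 214.6 CPM at 750 UMIs. Of these pairs, the largest tumor-like clusters of each tumor, the deeper one had the lower sum in each of the 4 tumors. A smaller cluster of untreated tumor 1, with 101 nuclei and a median of 4647 UMIs, had 493.7 CPM, below both others. Nlrc5 went the other way in the first 3, at 2.68 in the deeper against 0.856 CPM in the shallower cluster, 4.2 against 1 CPM and 26.8 against 7.83 CPM, but not in untreated tumor 4, at 4.47 against 6.57 CPM. The part of depth in these values was not tested.

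The Minnelide tumors with the word responder in the file name and those with nonresponder are given side by side, without a test, since the labels do not give the words and there are 2 tumors of each. In tumor-like nuclei Tap1 stood at 12.6 and 11.6 CPM in the responder tumors and at 22.3 and 14.4 CPM in the nonresponder tumors. Psmb8 stood at 12.5 and 10.6 against 17.1 and 23.1 CPM, and Nlrc5 at 1.9 and 6.69 against 1.67 and 1.49 CPM. Psmb9 ran from 4.25 to 4.26 against 4.29 to 4.78 CPM. H2-K1, at 20.4 and 26.4 against 21.2 and 24.3 CPM, and B2m, at 38.7 and 19.7 against 39.9 and 31.45 CPM, had overlapping values. Those of Tap2 (9.6 to 9.94 against 9.8 to 15.2 CPM), H2-D1 (17.9 to 21.5 against 19.5 to 27.8 CPM), Tapbp and Psmb10 overlapped too. How many of all genes had 2 tumors apart from 2 was not counted, so values that lie apart are a description only. The sum over the 10 genes was 140.3 and 126.8 CPM in the responder tumors and 162.9 and 155.1 CPM in the nonresponder tumors.

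Other genes of the pathway were counted by list, and edgeR called 0 genes of each list in either direction in tumor-like nuclei. Of 18 other MHC class I and class I-like genes, 13 were measured and 8 tested, all 8 with a log2 fold change below 0 and a median of -1.68. H2-T23, which encodes the nonclassical molecule Qa-1, stood at 26.8, 7.2, 3.12 and 2.47 CPM in the untreated tumors and at 2.67, 1.62, 2.59 and 2.24 CPM in the Minnelide tumors (log2 fold change -1.89, SE 0.70, or -0.80 without untreated tumor 1). H2-Q7 and H2-Q4, relatives of close sequence whose reads may be shared, had log2 fold changes of -2.39 (SE 0.78) and -1.86 (SE 0.62), or -1.17 and -0.92 without untreated tumor 1. Cd1d1, which presents lipids, had -0.01 (SE 0.42). Without untreated tumor 1, 6 of the 8 were below 0 and the median was -0.57. The list's genes are close in sequence to H2-K1 and H2-D1, and reads may be shared with them.

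The MHC class II list, which serves presentation to CD4 T cells, had 7 of 9 genes tested, all 7 below 0 with a median of -1.12. Without untreated tumor 1, 6 of the 7 were below 0 and the median was -0.60. Ciita, the class II counterpart of Nlrc5, stood at 14.7, 8.78, 5.94 and 7.22 CPM in the untreated tumors and at 2.75, 4.26, 2.68 and 3.08 CPM in the Minnelide tumors, so its groups did not overlap. Its log2 fold change was -1.38 (SE 0.30), or -1.15 without untreated tumor 1, with an edgeR adjusted p of 0.55, and in tumor-like nuclei DESeq2 called it, alone of all listed genes. H2-Aa had -1.22 (SE 0.45), H2-Eb1 -1.12 (SE 0.53) and H2-DMa -0.06 (SE 0.40), or -0.75, -0.62 and 0.13 without untreated tumor 1. In tumor-like nuclei with no macrophage or T/NK UMI, Ciita had -1.03 and H2-Aa -1.33. Macrophages and B cells express these genes strongly. Macrophage and B cell marker levels in tumor-like nuclei were highest in untreated tumor 1, as given above, and their part in these fold changes was not tested.

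Of 16 regulators of the class I promoters, 16 were tested, with 11 below 0 and a median of -0.11, or 11 and -0.04 without untreated tumor 1. Irf1, an interferon-induced activator of class I promoters, stood at 45.1, 18.4, 14.3 and 17 CPM in untreated tumors 1 to 4 and at 9.86, 7.51, 14.8 and 11.1 CPM in Minnelide tumors 1 to 4. Its groups overlapped, and its log2 fold change was -0.95 (SE 0.35), or -0.52 without untreated tumor 1. Irf8, at 29.5 CPM in untreated tumor 1, had -1.36 (SE 0.54), or -0.67 without that tumor and -0.64 in nuclei with no macrophage or T/NK UMI. Suz12, a subunit of the PRC2 repressor complex, had -0.03 (SE 0.25), or -0.20 without untreated tumor 1. The interferon gamma signaling list had 8 of 9 genes tested, 7 below 0 and a median of -0.30, or 5 and -0.17 without untreated tumor 1. Its receptor gene Ifngr1 stood at 272.9 CPM in untreated tumor 1 and between 25.2 and 48.5 CPM in the other 7 tumors, and its log2 fold change of -1.46 (SE 0.63) came to -0.31 without that tumor. Socs1, a feedback inhibitor of the signal, had -0.07 (SE 0.42), or 0.01 without that tumor.

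The loading partners and peptide trimming list had 6 of 7 genes tested, 5 above 0 and a median of 0.34. Ganab, a glucosidase subunit, had 0.44 (SE 0.15), the chaperone gene Hspa5 0.45 (SE 0.23) and Pdia3, which encodes the disulfide isomerase of the loading complex, 0.25 (SE 0.23). Erap1, which trims peptides for class I, stood at 33.7 CPM in untreated tumor 1 and between 6.72 and 9.69 CPM in the other 7 tumors, and its log2 fold change of -0.73 (SE 0.41) came to -0.13 without that tumor. The proteasome counterparts and activators list had 9 of 10 genes measured and tested, 6 above 0 and a median of 0.02, or 8 above 0 and 0.23 without untreated tumor 1. Among them Psme3 had 0.34 (SE 0.17), Psme4 0.31 (SE 0.15), Psme1, an interferon-inducible activator subunit, -0.38 (SE 0.45), or 0.22 without untreated tumor 1, and Pomp 0.01 (SE 0.17).

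The genes of the pathway followed each other to different degrees across 55 profiles, each being 1 class in 1 tumor, which share tumors and libraries. Pearson's r of a gene with the mean of the other 9 was 0.89 for H2-D1, 0.88 for B2m and 0.81 for H2-K1. It was 0.59 for Tap1, 0.52 for Tap2, 0.50 for Nlrc5 and 0.34 for Psmb8. Among 9727 other genes with a mean of at least 10 CPM, the most like the mean of the 10 were Tmsb4x (0.89), Psap (0.88), Itm2b, Cyba and Tmbim6 (each 0.87), Grn (0.86), Ctsb and Itm2c (each 0.84), and Cd74 and Ly6e (each 0.83). Cd74 encodes the invariant chain of MHC class II, Psap, Grn and Ctsb encode lysosomal proteins, and Cyba encodes a subunit of the phagocyte oxidase. The gene bodies of these 10 were shorter than those of all ranked genes, with a median span of 15886 bases against 36118, and those of the pathway had a median of 5708 bases.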

How the data were processed

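Nuclei of 8 tumors, 4 untreated and 4 given Minnelide, were profiled with the Chromium 3' kit and on-chip multiplexing. The values are deposited UMI counts per gene and nucleus, raw and without normalization. The authors aligned reads to mm39 with intronic reads included; the submitters' processing notes name bcl2fastq 2.20 and Cell Ranger 7.0.1, while the matrix headers name Cell Ranger 9.0.1. The 2 versions could not be reconciled. The group of each tumor came from the labels of its sample and the response words from file names.

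A mixture model of mitochondrial share against genes detected removed nuclei at a posterior of 0.75 or above for the compromised component, nuclei under 200 genes were removed, and Scrublet doublets were removed at an expected 0.8% per 1000 nuclei. Scanpy 1.11.5 and igraph 0.11.9 were used for 30 principal components of 2000 variable genes, a graph of 40 neighbors and Leiden clustering at resolution 1. The 10 genes, the pathway lists and the markers were kept out of the clustering genes. Each cluster took the class of highest mean fold among those with at least 3 markers raised 1.5 times and present in 5% of nuclei. It stayed unnamed where more of its leading genes were markers of another class than of its own. With no own marker among the leading genes, other classes raised alongside also left it unnamed, but tumor-like clusters could carry 1. With an own marker there, other raised classes were allowed. Clusters of untreated tumors 1 and 4 with other classes raised alongside were thus named tumor-like, and stricter naming left them unnamed. The main naming rule was set after the clusters had been seen, and 2963 nuclei stayed unnamed. They made up 27% of Minnelide tumor 2, 8.84% of Minnelide tumor 4, 5.51% and 5.84% of untreated tumors 2 and 3, and 0.0334% to 0.483% of the other tumors. Among them were clusters of 1868 nuclei (97.3% from Minnelide tumor 2) and 362 nuclei (100% from Minnelide tumor 4), each with 7 of 8 tumor markers raised. The part of this unequal naming in the class comparisons was not tested. UMIs were summed per tumor and class (at least 20 nuclei) and tested with edgeR 4.0.16 (TMM, filterByExpr, glmQLFit, glmQLFTest, Benjamini-Hochberg over all genes tested, threshold 0.05). The SE was taken as the absolute log2 fold change over the square root of F. Single levels were compared by a two-sided exact permutation test over tumors. Alternatives were DESeq2 1.42.0, RLE size factors, no filter on low counts, no doublet removal, other class naming and leaving out each tumor. The fits were tested on simulated data.

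The genes, lists and tests were chosen with earlier results of these data known. From each list with over 5 measured genes, the 3 with the smallest unadjusted p in tumor-like nuclei and the 1 with the largest are named, except for an item that is not reported here. The short motif form was chosen after the windows had been read. The authors plot tumor growth for the mice chosen for single-nucleus sequencing after Minnelide. That each matrix came from a separate mouse was not established here, so p-values measure the spread between these tumors. Protein sequences were not used here.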

Additional observations from a re-analysis of the deposited data

Results flagged for a closer look

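Of 110 groups of 4 tumors looked at (each of the 10 genes and their sum, in all retained nuclei and in 4 classes), 12 held a tumor whose gap to the nearest other tumor exceeded Dixon's 95% critical value as a share of the group's range. By chance about 1 in 20 groups would be picked out in this way, and genes and classes of the same tumor are not independent. Untreated tumor 1 gave 4 of them: Tap2 at 54.2 CPM in all retained nuclei (the other untreated tumors 18.4 to 24.5), and in tumor-like nuclei H2-K1 at 223.1 CPM (33.2 to 60), Tap2 at 54.3 CPM (17.4 to 18.7) and Nlrc5 at 23.7 CPM (3.31 to 6.8).

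Minnelide tumor 2 gave 5. Its Nlrc5 was 8.13 CPM in all retained nuclei (2.93 to 3.5 in the other Minnelide tumors) and 6.69 CPM in tumor-like nuclei (1.49 to 1.9). In its endothelial-like nuclei H2-K1 was 77.6 CPM (45.2 to 50.4) and Tap2 was 34.8 CPM (16.3 to 17.9), while in fibroblast-like nuclei Tap2 was lower than in the others, at 9.25 CPM (15.9 to 17.1).

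In Minnelide tumor 3, tumor-like nuclei had Tap2 at 15.2 CPM (9.6 to 9.94) and Psmb9 at 4.78 CPM (4.25 to 4.29). In Minnelide tumor 4, Tapbp was 84.5 CPM in macrophage-like nuclei (24.3 to 34.6), a class of 83 nuclei there.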

How the results depend on the processing

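No paired analysis was possible because the labels give no replicate numbers that tie an untreated to a Minnelide tumor. No alternative put a gene of the 10 past the threshold of 0.05. Calls over all genes moved with the tool: DESeq2 called 181 genes in all retained nuclei, 99 in tumor-like, 51 in fibroblast-like and 13 in endothelial-like nuclei, where edgeR called 0, and the cause was not tested. With tumors left out in turn, edgeR called 0 to 1 genes in all retained nuclei (1 without Minnelide tumor 2), 0 to 2 in fibroblast-like nuclei (2 without untreated tumor 1) and 0 to 3 in the difference between classes (3 without untreated tumor 3, 1 without untreated tumor 1 or Minnelide tumor 1), which had 3 at Leiden resolution 0.5 and 1 under stricter naming. Stricter naming left untreated tumor 1 with 103 tumor-like nuclei and untreated tumor 4 with 2321.

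The count of the 10 genes with all Minnelide tumors below all untreated tumors was 2 in tumor-like nuclei. It was 0 without doublet removal and 0 under stricter naming, was 3 at resolution 0.5, and ran from 2 to 3 with tumors left out. In all retained nuclei it ran from 2 to 4, with 4 without untreated tumor 4. These alternatives for the count were added after the data had been seen. The share of Minnelide tumor-like nuclei with a UMI was 8.55% at 500 UMIs, by construction lower than at 1000. The ratio of macrophage-like to tumor-like nuclei ran from 2.78 to 3.07 over the alternatives.

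Some directions turned. In tumor-like nuclei under stricter naming, log2 fold changes became -0.01 for Tap1, -0.20 for Psmb8, 0.03 for Psmb10, 0.21 for Psme1, 0.30 for Cd1d1 and 0.00 for H2-DMa. With nuclei that lacked macrophage and T/NK UMIs they became 0.25 for Cd1d1, 0.02 for Suz12, 0.21 for Socs1 and 0.06 for H2-DMa. Cd1d1 became 0.05 without doublet removal and 0.00 without the filter, Pomp -0.01 at resolution 0.5 and, in macrophage-like nuclei, Tapbp 0.03 with DESeq2. In the difference between classes H2-D1 became 0.07 at resolution 0.5, 0.04 without doublet removal and 0.17 under stricter naming, where Tap2 became 0.06, Psmb8 -0.03, Psmb9 0.03 and Psmb10 0.04.

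With tumors left out in turn, log2 fold changes that turned ran, in all retained nuclei, from -0.32 to 0.16 for Tap1, -0.46 to 0.01 for Tapbp and -0.02 to 0.48 for Psmb8. In tumor-like nuclei they ran from -0.21 to 0.14 for Tap1, -0.26 to 0.11 for Tapbp, -0.00 to 0.40 for Psmb8, -0.53 to 0.05 for Psmb10, -0.60 to 0.22 for Psme1, -0.09 to 0.10 for Pomp, -0.39 to 0.15 for Cd1d1, -0.20 to 0.19 for Suz12, -0.38 to 0.19 for Socs1 and -0.50 to 0.13 for H2-DMa. In fibroblast-like nuclei they ran from -0.05 to 0.37 for Tap1, -0.26 to 0.24 for Tapbp, -0.02 to 0.42 for Psmb8 and -0.30 to 0.28 for Psmb9. In endothelial-like nuclei they ran from -0.35 to 0.07 for Tap1 and -0.26 to 0.09 for Psmb8, and in macrophage-like nuclei from -0.40 to 0.30 for Tapbp and -0.37 to 0.19 for Nlrc5. In the difference they ran from -0.23 to 0.15 for H2-D1, -0.05 to 0.21 for Tap1, -0.24 to 0.12 for Tapbp and -0.34 to 0.09 for Psmb10.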
